A study of Mus musculus with 9 samples.

Results

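The expression of 38 genes for lysosomal enzymes, lysosomal membrane proteins and related lumenal proteins was measured in endothelial cells (ECs) of mouse bone marrow. The genes were taken by symbol from the deposited expression table, and all 38 were found among its 17232 genes. They comprised 9 cysteine cathepsins and legumain, 3 other peptidases, 10 glycosidases, 4 sulfatases, 6 lipid hydrolases and lipid handling proteins, 4 membrane proteins and progranulin. All 38 passed the filter on low values and stood among the 16364 genes tested.

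The cells came from Nestin-GFP transgenic mice, in which regulatory elements of the Nestin gene drive the GFP reporter. Mice of both sexes, 6 to 14 weeks old, were used, and no treatment or deletion was applied. Within live CD45- Ter119- CD31+ bone marrow cells, PDPN- Sca-1high cells were sorted as arterial endothelial cells (AECs) and split by reporter signal into Nestin-GFPbright AECs (GFPhigh in the labels) and Nestin-GFPdim AECs (GFPlow), called bright and dim AECs in the plots, and PDPN+ Sca-1low cells were sorted as sinusoidal endothelial cells (SECs). Each of the 3 populations gave 3 libraries, numbered 1, 3 and 4. The labels do not say how many animals stand behind a library or whether equal numbers share animals, so the p values measure the spread between these libraries.

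Lysosomes are acidic organelles that degrade proteins, glycans and lipids delivered by endocytosis and autophagy. Cysteine and aspartic proteases open and cleave proteins, exoglycosidases and sulfatases remove sugars and sulfate groups in sequence, and lipid hydrolases work with saposins as activators. Membrane glycoproteins such as LAMP1 and LAMP2 line the organelle. Sinusoidal endothelium is known for rapid uptake of waste macromolecules from blood, which ends in lysosomal breakdown.

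The largest differences lay in the proteases. Ctsl, which encodes the endopeptidase cathepsin L, and Lgmn, which encodes the asparaginyl endopeptidase legumain, were lower in AECs than in SECs, with log2 fold changes of -3.76 ± 0.53 and -3.08 ± 0.55 (SE). Scarb2, which encodes the lysosomal membrane protein LIMP-2, was lower with a log2 fold change of -1.27 ± 0.24. Of the 38 genes, 3 (7.89%) were called lower in AECs and 0 higher, beside 2.99% and 1.94% of all genes tested. The number of called genes ran from 1 to 9 over 20 alternative settings.

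Promoter windows are printed for the 4 genes called lower in AECs or in 1 AEC fraction, and for Ctsd, whose adjusted p lay next to the threshold and whose window held more than 1 match. They were read from RefSeq tables of build GRCm38.p6 and run 5′ to 3′ from 250 bases before to 50 bases after a transcription start. Capitals mark CACGTG, a palindrome that is the same on both strands and is the core of the element that TFEB and its relatives bind in promoters of lysosomal genes.
Ctsl, chr13:64370471-64370770, minus strand: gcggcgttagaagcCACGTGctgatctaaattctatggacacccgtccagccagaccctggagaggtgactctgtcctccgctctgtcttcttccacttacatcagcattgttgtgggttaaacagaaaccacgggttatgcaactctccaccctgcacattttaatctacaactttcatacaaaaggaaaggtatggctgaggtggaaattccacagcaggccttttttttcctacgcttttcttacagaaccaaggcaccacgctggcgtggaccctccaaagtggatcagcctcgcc
Lgmn, chr12:102439043-102439342, minus strand: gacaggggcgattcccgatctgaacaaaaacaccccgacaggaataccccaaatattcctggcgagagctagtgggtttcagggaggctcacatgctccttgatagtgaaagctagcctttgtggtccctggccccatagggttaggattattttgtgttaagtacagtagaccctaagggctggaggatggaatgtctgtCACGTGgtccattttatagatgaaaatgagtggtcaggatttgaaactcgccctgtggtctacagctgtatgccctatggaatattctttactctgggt
Lgmn, chr12:102439679-102439978, minus strand: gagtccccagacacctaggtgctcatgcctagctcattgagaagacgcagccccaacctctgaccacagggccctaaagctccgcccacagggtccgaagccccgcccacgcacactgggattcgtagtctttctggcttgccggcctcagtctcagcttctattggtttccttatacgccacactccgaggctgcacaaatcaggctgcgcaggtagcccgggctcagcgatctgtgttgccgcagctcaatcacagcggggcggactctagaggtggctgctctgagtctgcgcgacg
Scarb2, chr5:92505608-92505907, minus strand: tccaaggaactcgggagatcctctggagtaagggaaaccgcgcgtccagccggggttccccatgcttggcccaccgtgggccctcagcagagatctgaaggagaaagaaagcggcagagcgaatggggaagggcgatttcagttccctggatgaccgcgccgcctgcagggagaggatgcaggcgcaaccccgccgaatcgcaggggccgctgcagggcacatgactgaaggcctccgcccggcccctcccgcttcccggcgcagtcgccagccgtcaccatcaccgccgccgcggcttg
Naglu, chr11:101069844-101070143, plus strand: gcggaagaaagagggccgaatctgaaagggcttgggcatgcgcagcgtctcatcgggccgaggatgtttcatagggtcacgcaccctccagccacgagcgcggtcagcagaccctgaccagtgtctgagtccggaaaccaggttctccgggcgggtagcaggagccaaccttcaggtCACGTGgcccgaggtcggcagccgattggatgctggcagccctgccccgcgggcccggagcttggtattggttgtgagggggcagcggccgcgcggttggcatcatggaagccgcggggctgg
Ctsd, chr7:142387778-142388077, minus strand: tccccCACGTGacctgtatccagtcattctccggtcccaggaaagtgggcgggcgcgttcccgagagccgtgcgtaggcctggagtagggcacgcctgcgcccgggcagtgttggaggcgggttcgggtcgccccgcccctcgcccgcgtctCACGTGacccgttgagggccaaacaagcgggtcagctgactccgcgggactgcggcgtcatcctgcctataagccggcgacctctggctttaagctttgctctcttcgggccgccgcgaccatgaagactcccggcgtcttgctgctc

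The Ctsl window held 1 match, at -236 from a RefSeq start that lay outside the gene span of the deposited table, and the Naglu window 1 match, at -73. The Ctsd window held 2, at -245 and -98. Lgmn had 2 windows. The match, at -49, lay in the window inside the gene span, and the window that reached past the gene's 5′ end held none. The Scarb2 window held none, and its start also lay outside the gene span. RefSeq windows were matched for 34 of the 38 genes, all but Npc1, Asah1, Ctsb and Ctsh. Of these 34 genes, 13 (38.2%) had CACGTG in a window, against 1208 of 10844 tested genes with an entry (11.1%) and 2187 of all 27025 genes in the table (8.09%). The longer TCACGTGA, which contains the shorter motif, occurred in 4 of the 34 genes (11.8%), 2.03% of the tested genes and 1.12% of all genes. The 13 genes were Ctsa, Ctsd, Ctsf, Ctsl, Lgmn, Lamp1, Mcoln1, Glb1, Naglu, Gaa, Gla, Sgsh and Arsa. They included 5 of the 8 genes whose AEC libraries all lay below the SEC libraries (all but Ctsc, Hexa and Scarb2), 0 of the 3 whose AEC libraries all lay above (Ctsz, Gusb and Lipa) and 8 of the other 23 matched genes. CACGTG was picked as a motif already known from promoters of lysosomal genes, so its higher share in these genes is no independent finding. These matches describe letters in a window, and no binding was measured.

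The deposited values were log2 RPKM (reads per kilobase of transcript, scaled to the library's reads), scaled by TMM. Between 21442578 and 54383312 reads fell into the listed genes in Nestin-GFPbright AECs, 13895090 to 40677442 in Nestin-GFPdim AECs and 36719838 to 73474534 in SECs. The 7 pan-endothelial markers had reads in every library. They summed to 324 to 1379 RPKM in Nestin-GFPbright AECs, 725 to 2071 RPKM in Nestin-GFPdim AECs and 838 to 1507 RPKM in SECs. The lowest sum, 324 RPKM, was that of Nestin-GFPbright AEC replicate 1. The summed level of 7 arterial markers was 231 to 1007 RPKM in AECs and 28.8 to 65.1 RPKM in SECs, and 5 of the 7 were called higher in AECs. The summed level of 8 sinusoidal markers was 60.1 to 101 RPKM in Nestin-GFPbright AECs, 135 to 1054 RPKM in Nestin-GFPdim AECs and 3368 to 5840 RPKM in SECs, and all 8 were called lower in AECs. Nestin-GFPdim AEC replicate 3 gave the value of 1054 RPKM, and the next highest AEC library had 365 RPKM. The study had reported Gja4, Gja5, Efnb2 and Bmx as AEC genes and Stab2, Dnase1l3, Vcam1, Sele and Selp as SEC genes from this sequencing. Calls of these markers are therefore no independent check of the populations.

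Transcripts of blood cells were present in all 3 populations although CD45+ cells had been gated out. The 10 neutrophil markers summed to 296804, 207534 and 121419 RPKM in the libraries numbered 1 of bright AECs, of dim AECs and of SECs, against 141 to 56095 RPKM in the other 6 libraries. The 14 macrophage markers in the file summed to 2819 to 20208 RPKM in Nestin-GFPbright AECs, 782 to 12255 RPKM in Nestin-GFPdim AECs and 613 to 8636 RPKM in SECs. Of these 14, 6 (Mpeg1, C1qa, C1qb, C1qc, Fcgr1 and Cd163) had no read in at least 1 library. Mrc1, a mannose receptor that sinusoidal endothelium also expresses, was the 1 macrophage marker called lower in AECs. The 4 osteoclast markers in the file summed to 2.86 to 1340 RPKM over the 9 libraries, and smooth muscle and pericyte markers to 41.1 to 291, 15.7 to 71.6 and 4.49 to 9.54 RPKM in bright AECs, in dim AECs and in SECs, with 2 of those 7 markers called higher in AECs. The summed B and plasma cell, megakaryocyte, erythroid and stromal markers ran at 9.27 to 1923, 9.64 to 1609, 9.44 to 13794 and 2.59 to 32.3 RPKM over the 9 libraries, and 0 of these markers, of the neutrophil markers or of the tested osteoclast markers were called in limma (unadjusted p under 0.05 for 2 of them). Nucleated cells in general transcribe lysosomal genes, the part of these transcripts in the values of the lysosomal genes was not tested, and in sorted bulk samples fewer cells of a type and less RNA per cell cannot be told apart.

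Differences were tested with limma on log2(RPKM + 1) in a fit over all 9 libraries, and a gene was called at an adjusted p (Benjamini-Hochberg over 16364 genes) under 0.05. Fold changes are on the log2(RPKM + 1) scale, which understates changes of genes with few RPKM. For AECs minus SECs, the contrast took the mean of both AEC populations.

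The lysosomal genes took up a smaller part of the AEC libraries. They held 0.722, 0.87 and 1.03% of the reads of Nestin-GFPbright AECs, 0.811, 1.7 and 0.911% of those of Nestin-GFPdim AECs and 2.18, 3.33 and 2.47% of those of SECs. The AEC and SEC libraries did not overlap. Without Ctsl the shares were 0.702 to 0.974%, 0.752 to 1.46% and 1.49 to 2.22% in the same order, and the highest AEC value, 1.46% in Nestin-GFPdim AEC replicate 3, lay just under the lowest SEC value.

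The make-up of this transcript pool differed most in Ctsl. Of the summed RPKM of the 38 genes, Ctsl made up 4.2, 9.37 and 8.52% in Nestin-GFPbright AECs, 11.2, 22.1 and 10.9% in Nestin-GFPdim AECs and 43.8, 46.6 and 45.9% in SECs. In SECs it was the gene with the highest mean level, followed by Ctsb, Ctsd, Lgmn and Psap. In Nestin-GFPbright AECs Psap had the highest mean level, followed by Ctsd, Ctsb, Grn and Ctsz, with Ctsl at rank 6. In Nestin-GFPdim AECs Ctsl had the highest mean level, but without replicate 3 of that fraction it stood at rank 3, with a mean of 309 RPKM, below Ctsd and Psap. For Lgmn the rank was 17 of 38 in Nestin-GFPbright AECs, 7 in Nestin-GFPdim AECs and 4 in SECs. The top 5 genes of each library held 55.3 to 67.9% of the summed RPKM in AECs and 79 to 83.6% in SECs.

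**Figure D1:**
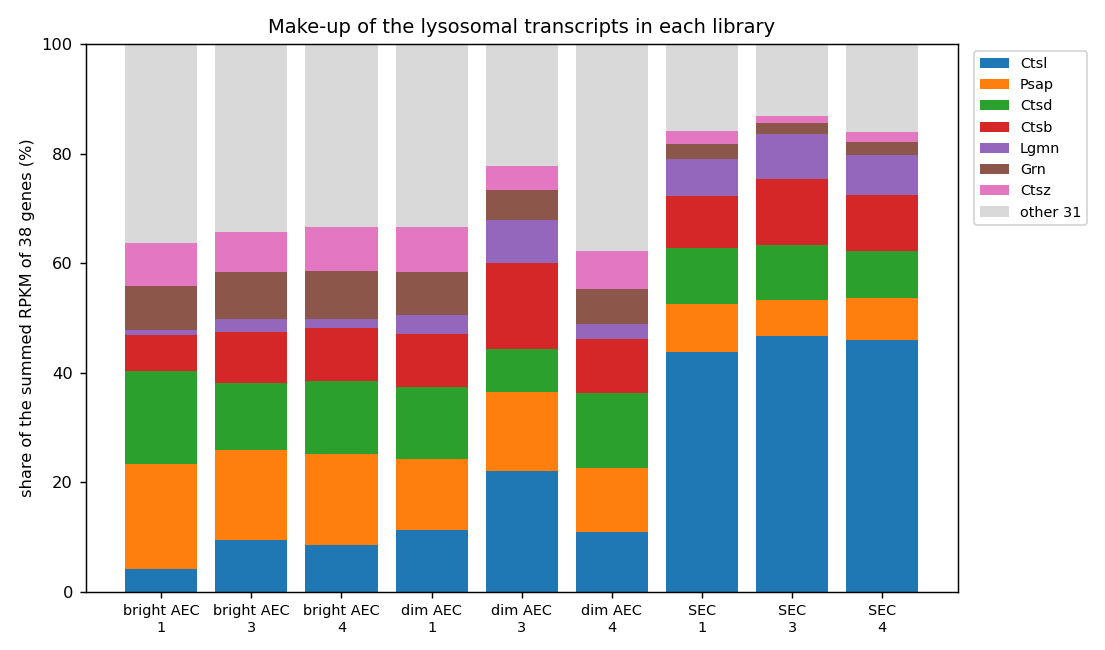
Share of each gene in the summed RPKM of the 38 lysosomal genes, in percent, for each of the 9 libraries, with 7 genes coloured and the other 31 in grey. Ctsl (blue) holds 4.2 to 22.1% in the 6 AEC libraries and 43.8 to 46.6% in the 3 SEC libraries.

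Over the 38 genes, the median log2 fold change of AECs minus SECs was -0.46, against 0.03 over all genes tested. The estimate was negative for 30 genes and positive for 8. The share of all genes tested that was called lower was 2.99%, and that called higher 1.94%, beside 3 (7.89%) and 0 of the lysosomal genes. The 6 AEC libraries lay all below the 3 SEC libraries for 8 of the 38 genes (Ctsc, Ctsd, Ctsl, Lgmn, Hexa, Gaa, Naglu and Scarb2) and all above them for 3 (Ctsz, Gusb and Lipa), while 5.77% of all genes tested lay all below and 4.68% all above. Unadjusted p values were under 0.05 for 17 of the 38 and for 14.7% of all genes tested.

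**Figure D2:**
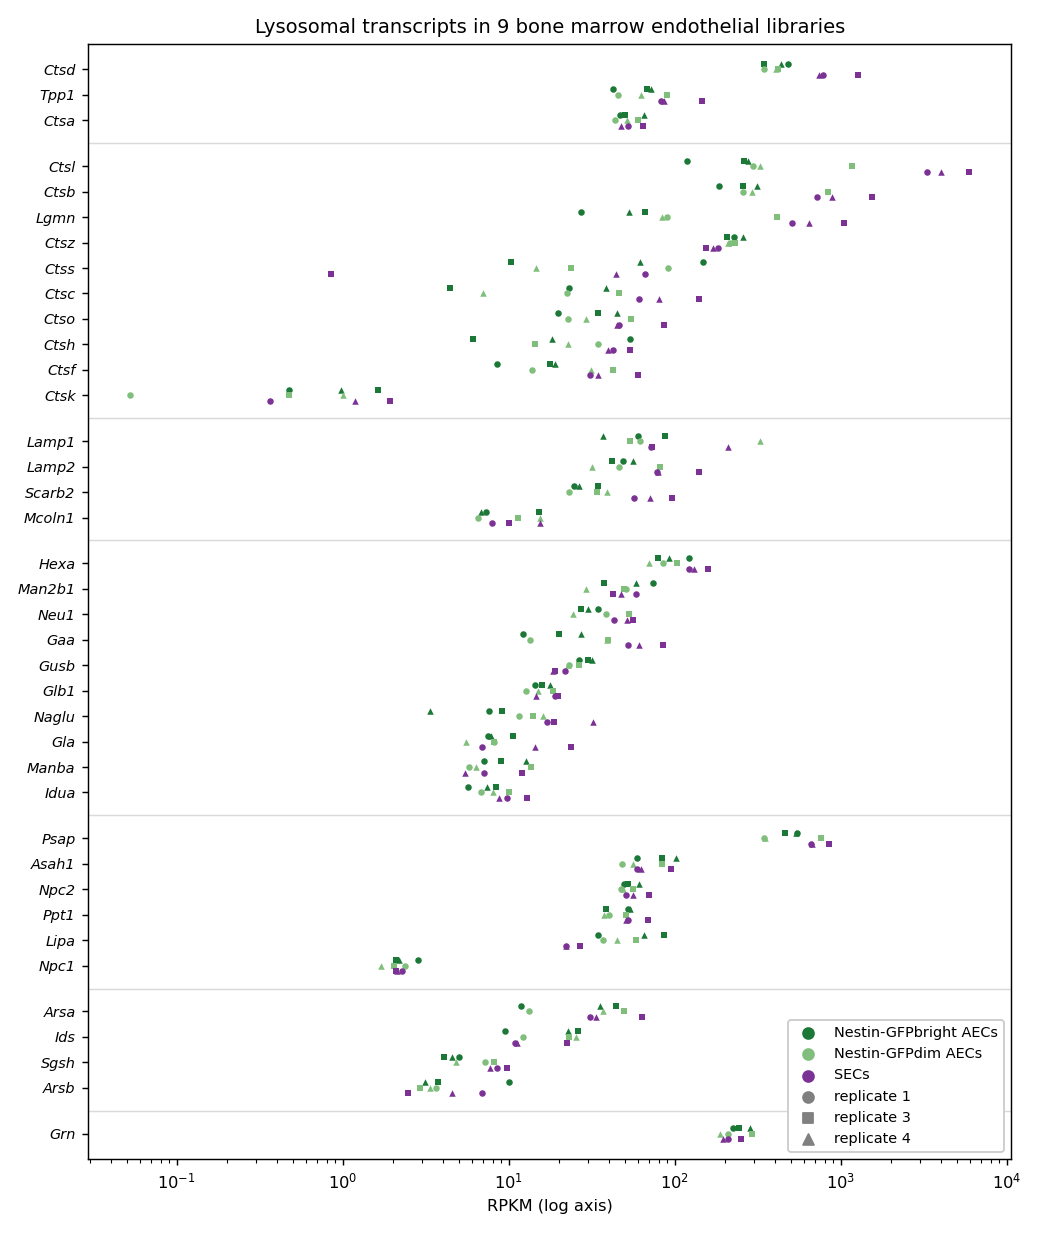
RPKM (log axis) of the 38 lysosomal genes in the 9 libraries, grouped by role (from the top: other peptidases, cysteine cathepsins and legumain, membrane proteins, glycosidases, lipid genes, sulfatases, progranulin), with colour for the population and shape for the library number. Levels span from 0.0525 RPKM for Ctsk in a Nestin-GFPdim AEC library to 5921 RPKM for Ctsl in SEC replicate 3.

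Among the 10 cysteine cathepsins and legumain, 2 were called lower in AECs, beside 2.99% of all genes tested, and the median log2 fold change was -1.05. Ctsl (chr13:64363214-64370306) had 119, 262 and 276 RPKM in Nestin-GFPbright AECs, 294, 1172 and 324 RPKM in Nestin-GFPdim AECs and 3311, 5921 and 3984 RPKM in SECs. Every AEC library lay below every SEC library, and the lowest SEC library had 2.82 times the level of the highest AEC library. Means were 219 ± 86.9, 597 ± 498 and 4405 ± 1356 RPKM (SD, n = 3 each), and the mean of the SEC libraries was 10.8 times that of the AEC libraries. The log2 fold change was -3.76 ± 0.53 for AECs minus SECs (limma adjusted p = 0.00574), -4.37 ± 0.61 for Nestin-GFPbright AECs minus SECs (adjusted p = 0.00605) and -3.15 ± 0.61 for Nestin-GFPdim AECs minus SECs (adjusted p = 0.0415). Nestin-GFPdim AEC replicate 3, the AEC library with the most Ctsl, was also the one with the most sinusoidal marker transcripts. Without that library the fold change of AECs minus SECs was -4.08 (adjusted p = 0.00211) and that of Nestin-GFPdim AECs minus SECs -3.79 (adjusted p = 0.0145).

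Lgmn (chr12:102394084-102439813), whose product activates cathepsins by cleavage after asparagine, had 27.1, 65.8 and 53.2 RPKM in Nestin-GFPbright AECs, 89.2, 411 and 83.5 RPKM in Nestin-GFPdim AECs and 507, 1047 and 645 RPKM in SECs. The populations did not overlap, and Nestin-GFPdim AEC replicate 3 again lay nearest to the SECs, at 411 RPKM. The log2 fold change was -3.08 ± 0.55 for AECs minus SECs (limma adjusted p = 0.0163), -3.91 ± 0.64 for Nestin-GFPbright AECs minus SECs (adjusted p = 0.0116) and -2.26 ± 0.64 for Nestin-GFPdim AECs minus SECs (adjusted p = 0.149). Without Nestin-GFPdim AEC replicate 3, the last of these was -3.00 (adjusted p = 0.0222). The call for AECs minus SECs was lost without SEC replicate 3 (-2.79, adjusted p = 0.0968) and without SEC replicate 4 (-3.14, adjusted p = 0.0812), and with libraries 3 and 4 of each population alone (-2.96, adjusted p = 0.0596).

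Ctsb, which encodes the abundant endo- and exopeptidase cathepsin B, had 185, 257 and 314 RPKM in Nestin-GFPbright AECs, 256, 834 and 293 RPKM in Nestin-GFPdim AECs and 722, 1541 and 881 RPKM in SECs. All Nestin-GFPbright AEC libraries lay below the SEC libraries, but Nestin-GFPdim AEC replicate 3 lay above the lowest of them. For AECs minus SECs its log2 fold change was -1.66 ± 0.45 (limma adjusted p = 0.0805). Without Nestin-GFPdim AEC replicate 3 it was -1.93 (adjusted p = 0.0215).

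Ctsc encodes the dipeptidyl peptidase cathepsin C, which activates serine proteases of granulocytes. It had 23.2, 4.44 and 38.5 RPKM in Nestin-GFPbright AECs, 22.3, 46.3 and 6.96 RPKM in Nestin-GFPdim AECs and 60.7, 140 and 79.8 RPKM in SECs. The AEC libraries lay below the SEC libraries but spread widely, and the log2 fold change of -2.23 ± 0.72 was not called (limma adjusted p = 0.153).

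Ctsz, which encodes the carboxypeptidase cathepsin Z, had an estimate of the opposite sign. Its levels were 226, 205 and 259 RPKM in Nestin-GFPbright AECs, 216, 229 and 209 RPKM in Nestin-GFPdim AECs and 181, 154 and 169 RPKM in SECs. The AEC libraries all lay above the SEC libraries, with a log2 fold change of 0.41 ± 0.18 that was not called (limma adjusted p = 0.336).

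Ctss, which encodes the cathepsin of antigen-presenting cells, had 148, 10.3 and 61.6 RPKM in Nestin-GFPbright AECs, 90.4, 23.7 and 14.6 RPKM in Nestin-GFPdim AECs and 66.4, 0.846 and 44.1 RPKM in SECs. It was highest in the libraries numbered 1 of each population, which also held the most macrophage and neutrophil marker transcripts, and lowest in SEC replicate 3, which held the fewest (613 and 141 RPKM). The populations overlapped (log2 fold change of AECs minus SECs 1.15 ± 1.26, limma adjusted p = 0.858). The share of blood cell transcripts in the Ctss values was not tested.

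The other 4 cathepsins of this class overlapped between AECs and SECs. Ctsf, Ctsh and Ctso, which are less abundant endo- and aminopeptidases, had log2 fold changes between -1.10 and -0.78 (limma adjusted p = 0.29, 0.455 and 0.392). Ctsk, the main collagen-degrading enzyme of osteoclasts, lay at 0.0525 to 1.63 RPKM in AECs and 0.366 to 1.92 RPKM in SECs, with as few as 1 read in a library.

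**Figure D3:**
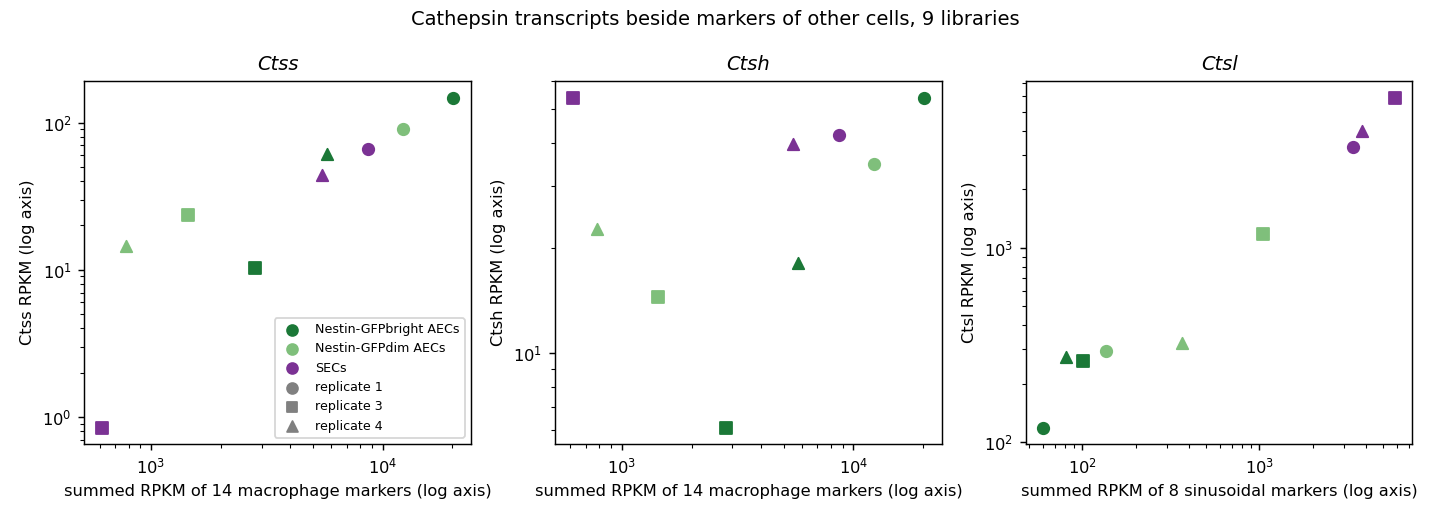
RPKM of Ctss and Ctsh against the summed RPKM of 14 macrophage markers, and RPKM of Ctsl against the summed RPKM of 8 sinusoidal markers, in 9 libraries (log axes, colour for the population, shape for the library number). Ctss is lowest (0.846 RPKM) in the SEC library with the fewest macrophage transcripts, Ctsh stands at 53.7 RPKM in that library, and among AEC libraries Ctsl is highest (1172 RPKM) in the one with the most sinusoidal transcripts (1054 RPKM).

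Of the 3 other peptidases, 0 were called in limma (unadjusted p under 0.05 for 2), and the median log2 fold change of AECs minus SECs was -0.71. Ctsd, the aspartic protease cathepsin D, had 480, 346 and 434 RPKM in Nestin-GFPbright AECs, 344, 416 and 408 RPKM in Nestin-GFPdim AECs and 782, 1260 and 741 RPKM in SECs. The 6 AEC libraries lay close together and below all SEC libraries. Its log2 fold change of AECs minus SECs was -1.16 ± 0.27, with an adjusted p of 0.0503 that just missed the threshold (limma), and it was -1.11 for Nestin-GFPbright AECs and -1.21 for Nestin-GFPdim AECs. Of 20 alternative settings 8 called it, with adjusted p values of 0.0208 to 0.23 over all 20. Tpp1, which encodes a tripeptidyl peptidase, had an estimate of -0.71 on the log2 scale (adjusted p = 0.315). Ctsa, whose product protects β-galactosidase and neuraminidase 1 in a complex, had an estimate of -0.05 (adjusted p = 0.967).

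Of the 4 membrane proteins, 1 was called lower in AECs, beside 2.99% of all genes tested, and the median log2 fold change was -0.68. Scarb2 (chr5:92443873-92505608), whose product also carries β-glucocerebrosidase to the lysosome, had 24.7, 34.6 and 26.5 RPKM in Nestin-GFPbright AECs, 23.0, 34 and 38.9 RPKM in Nestin-GFPdim AECs and 57.1, 96.3 and 71.0 RPKM in SECs. The AEC libraries lay all below the SEC libraries, and the fractions overlapped each other. The log2 fold change was -1.27 ± 0.24 for AECs minus SECs (limma adjusted p = 0.0209), -1.34 ± 0.28 for Nestin-GFPbright AECs (adjusted p = 0.0316) and -1.20 ± 0.28 for Nestin-GFPdim AECs (adjusted p = 0.0792), each against SECs. The call for AECs minus SECs was lost without Nestin-GFPbright AEC replicate 4 (-1.25, adjusted p = 0.0557), without SEC replicate 3 (-1.07, adjusted p = 0.117) and without SEC replicate 4 (-1.29, adjusted p = 0.102).

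Lamp1, a major glycoprotein of the lysosomal membrane, had 60.2, 87.8 and 36.9 RPKM in Nestin-GFPbright AECs, 62.1, 53.6 and 324 RPKM in Nestin-GFPdim AECs and 71.5, 73.2 and 210 RPKM in SECs. It was highest in replicate 4 of Nestin-GFPdim AECs and of SECs and lowest in replicate 4 of Nestin-GFPbright AECs, so the populations overlapped (log2 fold change of AECs minus SECs -0.41 ± 0.63, limma adjusted p = 0.915). Its relative Lamp2, which acts in autophagosome clearance, had 31.6 to 81.9 RPKM in AECs and 77.6 to 140 RPKM in SECs, and was not called (-0.95 ± 0.32, adjusted p = 0.18). The calcium channel gene Mcoln1 had 6.55 to 15.4 RPKM in AECs and 7.95 to 15.5 RPKM in SECs (log2 fold change -0.12, adjusted p = 0.963).

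Of the 10 glycosidases, 0 were called in AECs against SECs in limma (unadjusted p under 0.05 for 5), and the median log2 fold change was -0.48. Naglu (chr11:101070012-101077672), which encodes α-N-acetylglucosaminidase of heparan sulfate breakdown, was called lower in Nestin-GFPbright AECs alone. It had 7.57, 9.16 and 3.34 RPKM in Nestin-GFPbright AECs, 11.5, 13.9 and 16.1 RPKM in Nestin-GFPdim AECs and 17.0, 18.6 and 32.3 RPKM in SECs. The 3 populations did not overlap, with Nestin-GFPdim AECs between the others. The log2 fold change was -1.65 ± 0.37 for Nestin-GFPbright AECs minus SECs (limma adjusted p = 0.0421), -0.63 ± 0.37 for Nestin-GFPdim AECs minus SECs (adjusted p = 0.689) and -1.03 for Nestin-GFPbright minus Nestin-GFPdim AECs (adjusted p = 0.983).

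The call of Naglu was lost when any 1 of the 9 libraries was left out. The adjusted p was 0.0558, 0.0565 and 0.111 without Nestin-GFPbright AEC replicate 1, 3 and 4. It was 0.0577, 0.0678 and 0.058 without Nestin-GFPdim AEC replicate 1, 3 and 4, and 0.0747, 0.118 and 0.169 without SEC replicate 1, 3 and 4.

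Gaa, which encodes the glycogen-degrading acid α-glucosidase, had 12.2, 20.1 and 27.3 RPKM in Nestin-GFPbright AECs, 13.4, 39.7 and 39.0 RPKM in Nestin-GFPdim AECs and 52.5, 85.1 and 60.5 RPKM in SECs. The AEC libraries lay below the SEC libraries, and the log2 fold change of -1.46 ± 0.39 was not called (limma adjusted p = 0.082). Hexa, the α subunit of β-hexosaminidase, had 121, 78.8 and 92.3 RPKM in Nestin-GFPbright AECs, 85.2, 103 and 70.3 RPKM in Nestin-GFPdim AECs and 122, 158 and 131 RPKM in SECs. The highest AEC library and the lowest SEC library were almost equal, and the log2 fold change was -0.59 ± 0.21 (adjusted p = 0.218).

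Gusb, which encodes β-glucuronidase, had 26.3, 30.0 and 31.5 RPKM in Nestin-GFPbright AECs, 23.1, 26.5 and 22.7 RPKM in Nestin-GFPdim AECs and 21.8, 19.1 and 18.4 RPKM in SECs. All AEC libraries lay above all SEC libraries, by a small margin, and the log2 fold change of 0.41 ± 0.15 was not called (limma adjusted p = 0.234). The other 6 glycosidases (Glb1, Gla, Man2b1, Manba, Neu1 and Idua), which remove terminal galactose, mannose, sialic acid or iduronic acid, overlapped between AECs and SECs. Their log2 fold changes ran between -0.70 for Gla and 0.13 for Manba, with adjusted p values of 0.331 to 0.985.

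The 4 sulfatase genes Sgsh, Ids, Arsa and Arsb, whose products remove sulfate from glycosaminoglycans or sulfatide, overlapped between AECs and SECs. Their median log2 fold change was -0.30, and adjusted p values were 0.231 to 0.974 (limma, unadjusted p under 0.05 for 1). The lowest of these belonged to Sgsh, with 4.09 to 8.10 RPKM in AECs and 7.71 to 9.71 RPKM in SECs. Arsa was low in both AEC libraries numbered 1 (11.8 RPKM in Nestin-GFPbright AECs and 13.3 RPKM in Nestin-GFPdim AECs), while the other 4 AEC libraries had 35.5 to 49.5 RPKM and the SEC libraries 30.7 to 63.0 RPKM.

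The 6 lipid genes had a median log2 fold change of -0.09, and 0 were called in limma (unadjusted p under 0.05 for 1). Lipa, which encodes the acid lipase that hydrolyses cholesteryl esters and triglycerides, had 34.4, 85.8 and 65.6 RPKM in Nestin-GFPbright AECs, 36.8, 58.1 and 44.9 RPKM in Nestin-GFPdim AECs and 22.2, 26.8 and 22 RPKM in SECs. Every AEC library lay above every SEC library. Its difference was 1.10 ± 0.29 on the log2 scale (limma adjusted p = 0.0779). It was called without Nestin-GFPbright AEC replicate 1, and with libraries 3 and 4 alone it was 1.31 (adjusted p = 0.0408), with 4 of 20 settings calling it and adjusted p values of 0.00403 to 0.298 over all 20.

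Psap, the precursor of the saposins, had 543, 460 and 536 RPKM in Nestin-GFPbright AECs, 343, 762 and 351 RPKM in Nestin-GFPdim AECs and 658, 853 and 673 RPKM in SECs. All Nestin-GFPbright AEC libraries lay below the SEC libraries, but Nestin-GFPdim AEC replicate 3 lay among them (log2 fold change of AECs minus SECs -0.59 ± 0.32, limma adjusted p = 0.496). The cholesterol transfer genes Npc1 and Npc2, which act in series on cholesterol leaving the lysosome, had log2 fold changes of 0.01 and -0.16 (adjusted p = 0.997 and 0.855). Npc1 lay at 1.69 to 2.83 RPKM and Npc2 at 47.5 to 69.9 RPKM over the 9 libraries. The acid ceramidase gene Asah1 and the palmitoyl thioesterase gene Ppt1 had log2 fold changes of -0.02 and -0.34 (adjusted p = 0.991 and 0.539).

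Grn encodes progranulin, a secreted and lysosomal protein that is cleaved into granulins. It had 224, 243 and 284 RPKM in Nestin-GFPbright AECs, 208, 292 and 187 RPKM in Nestin-GFPdim AECs and 210, 251 and 194 RPKM in SECs. The 3 populations overlapped, with a log2 fold change of 0.12 ± 0.22 for AECs minus SECs (limma adjusted p = 0.937).

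**Figure D4:**
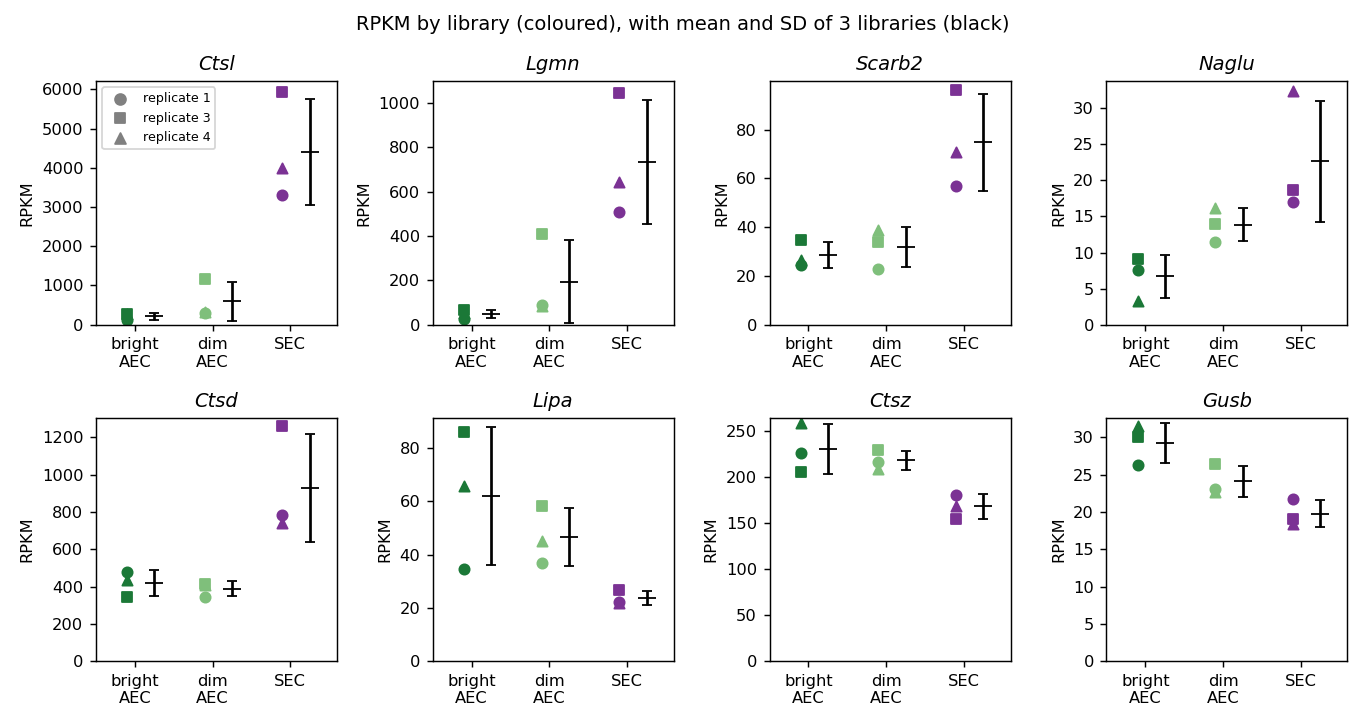
RPKM of 8 lysosomal genes in each library (points, shape for the library number), with the mean and SD of 3 libraries beside each population. AEC and SEC libraries do not overlap in any of the 8: Ctsl, Lgmn, Scarb2, Naglu and Ctsd lie lower in AECs, and Lipa, Ctsz and Gusb higher.

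Each AEC fraction was also set against SECs. Both comparisons share the 3 SEC libraries, so they are given side by side. For Nestin-GFPbright AECs minus SECs, 4 of the 38 genes (Ctsl, Lgmn, Scarb2 and Naglu) were called lower and 0 higher, while 2.85% of all genes tested were called lower and 1.74% higher. For Nestin-GFPdim AECs minus SECs, 1 of 38 (Ctsl) was called lower and 0 higher, while 1.19% of all genes were called lower and 0.764% higher. The median log2 fold changes were -0.50 and -0.42, and the estimate was negative for 27 and 31 of the 38 genes. Libraries lay all below the SEC libraries for 16 genes in Nestin-GFPbright AECs and for 10 in Nestin-GFPdim AECs, and all above for 3 in each. Among all genes tested, 12.2% lay all below and 10.2% all above SECs in Nestin-GFPbright AECs, and 9.39% all below and 7.6% all above in Nestin-GFPdim AECs.

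Several of these calls were lost when 1 library was left out, which also leaves fewer libraries to estimate the shared spread. Because the fit took group means, leaving out a Nestin-GFPdim AEC library cannot move an estimate of Nestin-GFPbright AECs minus SECs, such as Scarb2 (-1.34). It can change only the adjusted p. Calls over all genes fell too in some of these fits. Without SEC replicate 4 they were 88 higher and 189 lower for Nestin-GFPbright AECs, against 284 and 466 with all libraries. For Nestin-GFPbright AECs minus SECs, Ctsl alone remained called without Nestin-GFPbright AEC replicate 4, without SEC replicate 3 and without SEC replicate 4 (Lgmn adjusted p = 0.05, 0.0553 and 0.0527, the first just over the threshold), and Ctsl and Lgmn without Nestin-GFPbright AEC replicate 1 or 3 or Nestin-GFPdim AEC replicate 3 (Scarb2 adjusted p = 0.0703, 0.0605 and 0.05). Ctsl stayed called in all 21 alternative settings of that comparison (adjusted p = 0.000674 to 0.0326). For Nestin-GFPdim AECs minus SECs, the call of Ctsl was lost without Nestin-GFPbright AEC replicate 3 or 4 (adjusted p = 0.0719 and 0.0762), Nestin-GFPdim AEC replicate 1 or 4 (0.114 and 0.153) or SEC replicate 1, 3 or 4 (0.0962, 0.166 and 0.156). Its log2 fold change ran between -3.79 and -2.79 over the 21 settings.

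Libraries numbered 1 and 3 deviated together in Nestin-GFPdim AECs and SECs (correlations 0.778 and 0.647). Number 4 did not stand out, at 0.122 against 0.285 for Nestin-GFPdim AEC replicate 4 with SEC replicate 3. With the number as a block, 3 genes were called lower in Nestin-GFPdim AECs than in SECs: Ctsl (-3.15, limma adjusted p = 0.00634), Lgmn (-2.26, adjusted p = 0.017) and Scarb2 (-1.20, adjusted p = 0.0183). In that fit 2.19% of all genes were called lower and 1.74% higher. Within each number, Ctsl was lower in Nestin-GFPdim AECs by 3.49, 2.34 and 3.62 on the log2 scale for numbers 1, 3 and 4. For Lgmn the differences were -2.49, -1.35 and -2.94. Over the 38 genes, 22 were lower and 4 higher in Nestin-GFPdim AECs than in SECs within all 3 numbers, while 21.1% of all genes tested were lower and 18.9% higher within all 3.

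The AEC fractions were compared with each other. For Nestin-GFPbright minus Nestin-GFPdim AECs, 0 of the 38 genes were called in limma, while 0% of all genes tested were called higher and 0% lower. Unadjusted p values were under 0.05 for 2 of the 38 genes and for 803 (4.91%) of all genes, and limma-voom on the recovered reads also called 0. The median log2 fold change was 0.02, with 19 negative and 19 positive estimates, and the lowest adjusted p was 0.983. Ctsl, Lgmn and Naglu had all Nestin-GFPbright AEC libraries below all Nestin-GFPdim AEC libraries, with log2 fold changes of -1.23 ± 0.61, -1.65 ± 0.64 and -1.03 ± 0.37. Of all genes tested, 3.85% had the Nestin-GFPbright AEC libraries all below and 3.62% all above the Nestin-GFPdim AEC libraries. Without Nestin-GFPdim AEC replicate 3, the fold changes of Ctsl and Lgmn were -0.59 and -0.90. The summed sinusoidal markers differed in the same direction between the fractions, at 60.1 to 101 RPKM in Nestin-GFPbright AECs and 135 to 1054 RPKM in Nestin-GFPdim AECs, and their part in these differences was not tested.

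**Figure D5:**
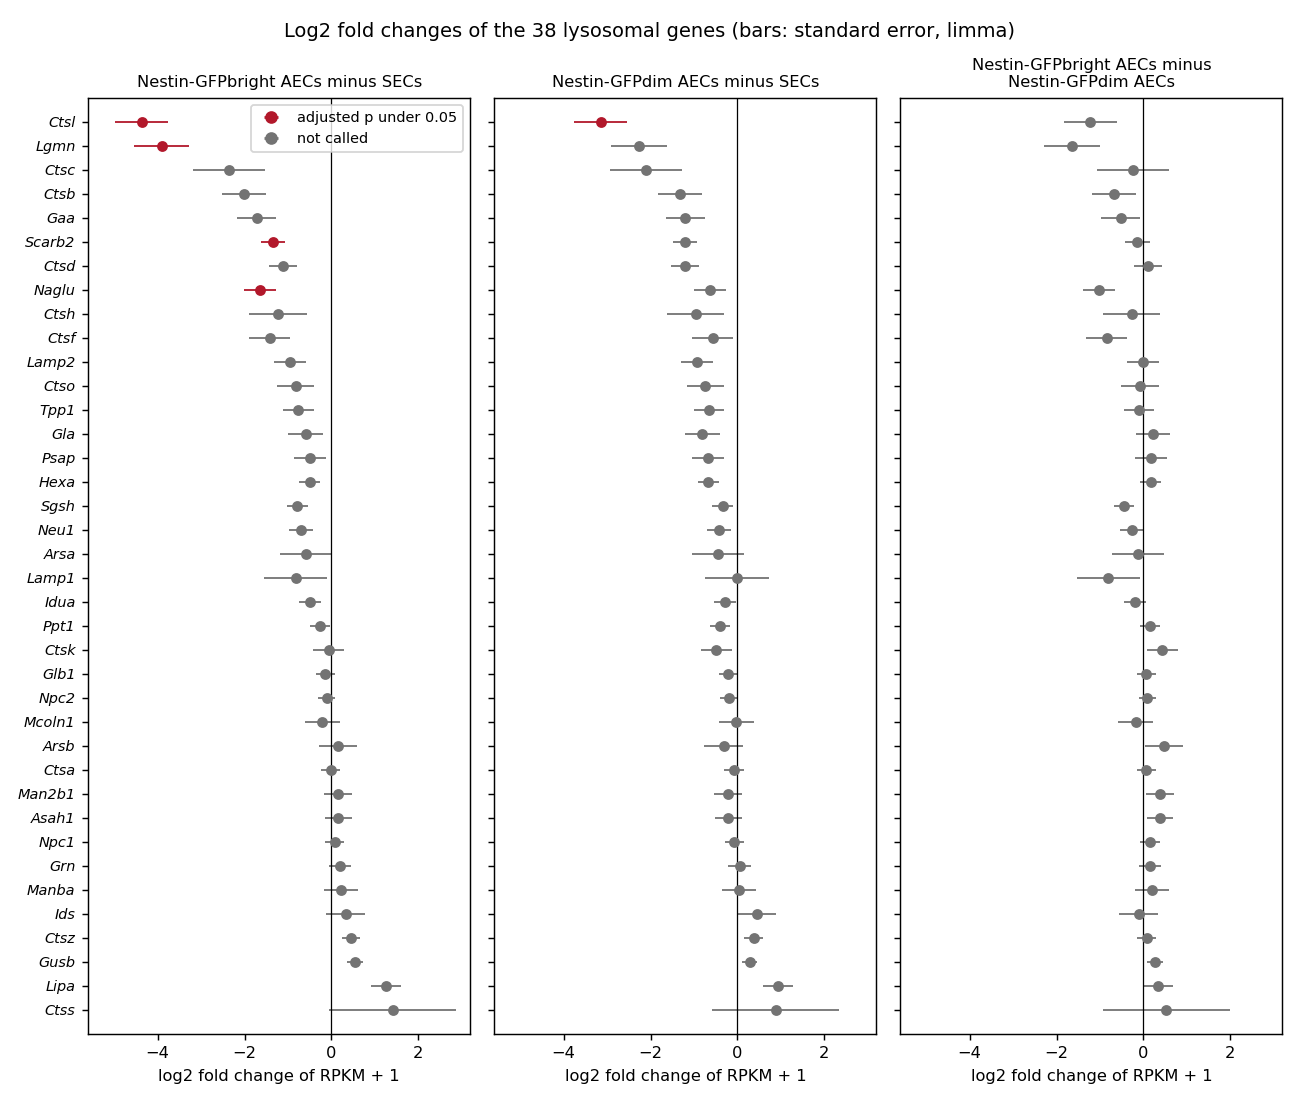
Log2 fold changes of RPKM + 1 for the 38 lysosomal genes in 3 comparisons, with standard errors from limma (bars) and calls at an adjusted p under 0.05 in red, ordered by AECs minus SECs. The 4 called genes of Nestin-GFPbright AECs minus SECs are Ctsl, Lgmn, Scarb2 and Naglu, the 1 of Nestin-GFPdim AECs minus SECs is Ctsl, and the right panel has 0.

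Other genes of the lysosomal pathway were counted in AECs minus SECs from 7 lists. Of all genes tested, 2.99% were called lower and 1.94% higher, so a single call in lists this short says little about a list. Of 30 further hydrolases and lumenal proteins, 0 were called higher and 1 lower (median log2 fold change -0.24). Of 17 further membrane proteins, 0 were called higher and 1 lower (median -0.14), and of 16 MiT/TFE factors and regulators of lysosomal mTORC1, 0 higher and 1 lower (median 0.06). None was called in either direction among 16 subunits of the proton pump V-ATPase (median 0.02), 10 genes of mannose 6-phosphate tagging and sorting (median -0.04), 13 autophagy genes (median 0.05) or 4 cathepsin inhibitors (median 0.24). In these 4 lists, in that order, the unadjusted limma p was under 0.05 for 2, 1, 0 and 3 genes.

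The 1 hydrolase was Pla2g15, the lysosomal phospholipase A2. It had 11.5, 9.43 and 9.75 RPKM in Nestin-GFPbright AECs, 10, 7.20 and 8.89 RPKM in Nestin-GFPdim AECs and 22.3, 26.1 and 24.6 RPKM in SECs. Libraries of each population lay close together and AECs and SECs were far apart, with a log2 fold change of -1.28 ± 0.17 (limma adjusted p = 0.00472, and 0.000509 to 0.0397 over 20 settings, all of which called it).

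Tfec, the MiT/TFE family member best known from macrophages in mice, had 3.50, 3.69 and 5.70 RPKM in Nestin-GFPbright AECs, 4.03, 6.06 and 2.93 RPKM in Nestin-GFPdim AECs and 12.7, 25.7 and 17.4 RPKM in SECs. The AEC libraries lay all below the SEC libraries, and the log2 fold change was -1.86 ± 0.29 (limma adjusted p = 0.00944). The call was lost without SEC replicate 3 (adjusted p = 0.0598) and without SEC replicate 4 (adjusted p = 0.06). Its relatives Tfeb and Tfe3 had log2 fold changes of 0.55 ± 0.40 and -0.06 ± 0.24 (adjusted p = 0.682 and 0.968), and both overlapped between AECs and SECs.

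Laptm4b, a transmembrane protein of late endosomes and lysosomes, had 14.5, 27.6 and 36.7 RPKM in Nestin-GFPbright AECs, 16.9, 42.6 and 29.5 RPKM in Nestin-GFPdim AECs and 81.6, 168 and 81.9 RPKM in SECs. AEC and SEC libraries did not overlap, and the log2 fold change was -1.95 ± 0.40 (limma adjusted p = 0.0275). The call was lost without Nestin-GFPbright AEC replicate 3 (adjusted p = 0.0573), Nestin-GFPdim AEC replicate 4 (0.0594), SEC replicate 1 (0.0667), SEC replicate 3 (0.146) or SEC replicate 4 (0.0913).

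Cst3, which encodes the secreted cathepsin inhibitor cystatin C, had an estimate of the opposite sign to those of Ctsl and Lgmn. Of the other 3 inhibitors, Cst7 had a positive estimate as well (1.46, limma adjusted p = 0.691), while Cstb and Serpinb6a had negative ones (-0.73 and -1.30, adjusted p = 0.268 and 0.158). Cst3 had 605, 735 and 857 RPKM in Nestin-GFPbright AECs, 739, 557 and 1610 RPKM in Nestin-GFPdim AECs and 338, 359 and 330 RPKM in SECs. All AEC libraries lay above all SEC libraries, with a log2 fold change of 1.21 ± 0.36 that was not called (limma adjusted p = 0.119). It was chosen for mention after its values were seen.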

How the data were processed

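Both AEC fractions and the SECs were sorted from digested bone marrow. RNA was amplified with SMART-Seq v4, and Nextera XT libraries were sequenced on an Illumina HiSeq instrument. Per the submitters' processing notes and methods, the authors aligned reads with STAR, counted them with HTSeq, filtered genes and scaled by TMM in edgeR 3.12.0. They deposited log2 RPKM. The labels name mm9, but positions overlapped the GRCm38 gene of the same identifier for 17083 of 17087 genes and for all 38 lysosomal genes, and are printed as deposited.

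RPKM was recomputed as 2 to the power of the deposited value. Genes that reached 0.1 RPKM in 3 or more libraries were tested with limma 3.58.1 (R 4.3.3, variance trend) on log2(RPKM + 1), over all 9 libraries without a replicate block. Tables were made with pandas 2.3.3 and numpy 2.4.6 in Python 3.11.15, figures with matplotlib 3.10.9, and the fit was tested on simulated data. Whole reads were recovered within 0.001 reads for 155079 of 155088 values (99.994%), with a mean prior of 0.25 reads, and gave 13895090 to 73474534 reads per library (median 36719838).

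Deviations from the group means were correlated between libraries of the same number. For numbers 1, 3 and 4 the values were 0.778, 0.647 and 0.122 between Nestin-GFPdim AECs and SECs. Between the AEC fractions they were 0.784, 0.424 and 0.155. Unlike numbers reached 0.285 between Nestin-GFPdim AECs and SECs and 0.498 between the fractions. Number 4 thus did not stand out as paired, nor did number 3 between the fractions, and the block was fitted as an alternative. The labels do not say what a number stands for.

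The genes and lists were chosen with earlier results of these data known. Values per library were given for genes called in any comparison, for the 8 with the highest mean RPKM and for those whose AEC and SEC libraries did not overlap. Up to 4 called genes of each pathway list were named. Ctss was given per library beside marker values after these were seen. Alternatives covered the value added to RPKM, the filter, scaling, library weights, the variance trend, the block, omitted libraries, the populations fitted and limma-voom on recovered reads.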

Additional observations from a re-analysis of the deposited data

Results flagged for a closer look

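On the log2(RPKM + 1) scale, 2 of the 38 genes had 1 of the 6 AEC libraries far from the other 5 (Dixon's test at the 95% level), a test that chance passes in about 1 in 20 genes. Ctsb stood at 834 RPKM in Nestin-GFPdim AEC replicate 3, against 185 to 314 RPKM in the other AEC libraries, a gap of 0.648 of the whole range on the log2 scale and 0.801 in RPKM. That library also had the most sinusoidal marker transcripts of the AEC libraries, 1054 RPKM, and the part of these in its Ctsb level was not tested.

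Arsb, which encodes arylsulfatase B of dermatan sulfate breakdown, stood at 9.99 RPKM in Nestin-GFPbright AEC replicate 1, against 2.91 to 3.73 RPKM in the other AEC libraries, a gap of 0.816 of the range on the log2 scale and 0.885 in RPKM. In SECs it was also highest in replicate 1, at 6.92 RPKM. Both libraries were the ones of their population with the most neutrophil transcripts (296804 and 121419 RPKM). Nestin-GFPdim AEC replicate 1, with 207534 RPKM of neutrophil transcripts, had 3.63 RPKM of Arsb, close to 2.91 and 3.34 RPKM in the other Nestin-GFPdim AEC libraries. The part of neutrophil transcripts in the Arsb values was not tested.

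In RPKM without a log, 5 genes passed the same test. They were Ctsb and Arsb, Ctsl and Lgmn through Nestin-GFPdim AEC replicate 3 (gaps of 0.805 and 0.838) and Lamp1 through Nestin-GFPdim AEC replicate 4 (0.823).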

How the results depend on the processing

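No estimate of a called gene changed direction in any of the 20 alternatives for AECs minus SECs or the 21 for each fraction. Some of these, such as the filter, the variance trend and the block, cannot move an estimate and change only its adjusted p. Counts of called genes stayed within 1.5 times in 16 of 20, 15 of 21 (Nestin-GFPbright AECs minus SECs) and 7 of 21 (Nestin-GFPdim AECs minus SECs). With weights per library, 9 genes were called in AECs and 10 in Nestin-GFPbright AECs against SECs, of which 2 in each (Gusb and Lipa) were higher, while 5.14% of all genes were called lower and 5.35% higher in AECs, and 6.09% and 6.53% in Nestin-GFPbright AECs. With the replicate block these counts were 8 and 8, with 1 higher in each (Lipa), and 3 for Nestin-GFPdim AECs, while 4.59% of all genes were called lower and 3.56% higher in AECs, and 4.7% and 3.8% in Nestin-GFPbright AECs. The block added Ctsb, Ctsd, Ctsf, Gaa and Lipa to the calls of AECs minus SECs (adjusted p = 0.0146, 0.0307, 0.0314, 0.0101 and 0.0168). Between Nestin-GFPbright AECs and SECs the correlations of numbers 1, 3 and 4 were 0.708, 0.593 and -0.212. Unlike numbers reached 0.362 at most. Numbers 1 and 3 thus deviated together there as well, and number 4 did not. For Nestin-GFPdim AECs, 0 genes were called after quantile scaling, after shifting libraries to 1 median, with libraries 3 and 4 alone, with the compared populations alone or in limma-voom (Ctsl adjusted p = 0.0735, 0.0611, 0.11, 0.0979 and 0.0624). Leaving out 1 library gave 1 to 4, 1 to 4 and 0 to 2 genes. The AEC fractions gave 0 throughout, also with the block. Median log2 fold changes over the 38 genes ran at -0.62 to -0.32, -0.59 to -0.30 and -0.52 to -0.30 against SECs, and at -0.07 to 0.16 between fractions. With 3 libraries per population and SEs of 0.15 to 1.46, small differences were not resolved, and Ctsk had as few as 1 read in a library.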
